A study of Drosophila melanogaster with 16 samples.

Results

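The pore-forming alpha subunits of the voltage-gated and calcium-gated potassium channels were examined in P1 neurons of Drosophila melanogaster males. The 10 genes were Sh, Shab, Shal, Shaw, slo, SK, eag, sei, Elk and KCNQ. They were found by matching FlyBase symbols to the gene identifiers of the count tables, and all 10 were present among 17559 genes. P1 neurons are a male-specific cluster of brain interneurons that express fruitless and promote courtship. Per the series' design text the cluster has 12 cells.

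Potassium channels let potassium leave a neuron and so set its resting potential, end each action potential and space the next. Sh, Shab, Shal and Shaw are the founding members of the classical voltage-gated families. Sh and Shal carry fast-inactivating A-type currents, whereas Shab and Shaw carry sustained delayed currents. The slo channel opens on voltage and calcium together, and SK opens on calcium alone through bound calmodulin. eag, sei and Elk form the ether-a-go-go family, and KCNQ carries a slow current that opens below spike threshold. In flies, mutants of Sh, eag and sei are known for leg shaking under ether or for paralysis in heat.

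All males carried UAS>stop>GFP/+; fruFLP/NP2631-Gal4, in which green fluorescence needs both Gal4 from the NP2631 insertion and a recombinase made from the fru locus. Flies were raised at 25 degrees and males were 3 to 6 days old at harvest per the series' design text, although the labels' protocols give 4 to 6 days of isolation. Naive males stayed virgin and gave 4 libraries. Mated males were paired with a female shortly before harvest and gave the other 4. The fluorescent cells were taken up with a patch pipette in living flies, and the number of cells in a library was not given. Per the design text, naive and mated males were used as 4 paired sets, but the labels do not say which library belongs to which set or how many animals a library holds. The p-values therefore measure the spread between these libraries, part of which may be technical. The groups were compared because the series asked which genes P1 neurons express and which change with mating.

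Libraries held 6897560 to 13651313 counts each. Every library was sequenced as 2 runs. Over 79 gene and library pairs with counts, the runs differed by more than 2 counting errors in 2. Between runs of genes with at least 1000 counts the median difference was 2.07%, far under the differences between libraries given below. Both P1 genes, fru and dsx, and the neuron genes elav, nSyb, Syt1, brp were present in all 8 libraries. The sum of 7 glia markers was 108 to 314 counts-per-million units (CPM) among naive and 288 to 918 CPM across mated libraries, which overlapped. Without nrv2 the sum was 30.5 to 53.8 CPM and 157 to 386 CPM, with no overlap. That separation thus depends on leaving out 1 marker. That of 6 fat body markers was 242 to 604 CPM across naive libraries and 1225 to 2939 CPM across mated libraries. The 7 photoreceptor markers summed to 1053 to 1720 CPM across naive and 1286 to 1855 CPM across mated libraries, which overlapped. Without norpA, which alone was high in every library, they summed to 14.9 to 94.3 CPM and 95.5 to 556 CPM. Sums of 5 muscle and 4 hemocyte markers stayed at or under 90.7 CPM in all libraries. Some defining markers were near 0: repo, the glial identity factor, had 0 counts in naive library 3 and in mated library 2. A number in the sample titles, of unstated meaning, was shared by both groups only for 1119, which held naive library 3 and mated libraries 1 and 3.

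The genes are spread over the genome and differ widely in length, which bears on their read counts. On BDGP6, Sh (FBgn0003380) lies on the minus strand of X at 17924307 to 18063247. SK (FBgn0029761) and eag (FBgn0000535) lie on the plus strand of X at 5340236 to 5405138 and 14955477 to 15009989. Shab (FBgn0262593, plus) and Shal (FBgn0005564, minus) lie on 3L at 2895017 to 2959579 and 19566851 to 19584568. Shaw (FBgn0003386) occupies 3718185 to 3729145 of 2L and slo (FBgn0003429) 24662491 to 24711595 of 3R, both on the plus strand. The remaining genes are on 2R, with sei (FBgn0003353) at 24047411 to 24053035 and Elk (FBgn0011589) at 17873939 to 17926695, both plus, and KCNQ (FBgn0033494, minus) at 10145897 to 10192394. All are protein-coding. The exons of Sh cover 22801 bp in 17 annotated transcripts and those of slo cover 10153 bp in 23, whereas the exons of sei cover only 3278 bp. Of the 10, only sei and KCNQ share exon bases with other genes. gammaSnap1 covers 11% and ppk29 3.63% of the sei exons, and asRNA:CR45133 covers 20.6% and CG18011 covers 6.84% of the KCNQ exons, in each case on the opposite strand. Whether reads were counted by strand was not given in the sources used here, so the counts of sei and KCNQ may hold reads of these neighbours.

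Within P1 neurons, Sh and slo led the channel transcripts, SK followed on average, and KCNQ had the lowest mean. Levels of different genes are compared here in CPM per kb of exon, where CPM is taken on the library size scaled by TMM, edgeR's correction for library composition. Sh averaged 225 ± 83.4 CPM per kb, slo 187 ± 52.9 and SK 102 ± 38.6 (SD, n = 8). The middle of the order was held by Shaw at 62.6 ± 14.5, Shal at 56.8 ± 23.5 and Shab at 46.9 ± 17.1 CPM per kb. Below them stood eag at 30.1 ± 13.1, Elk at 21.9 ± 8.32, sei at 10.5 ± 6.18 and KCNQ at 3.31 ± 3.34 CPM per kb. The A-type channel Sh and the calcium-gated slo thus held ranks 1 and 2 in every library, while SK ranged from rank 3 to rank 5.

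**Figure D1:**
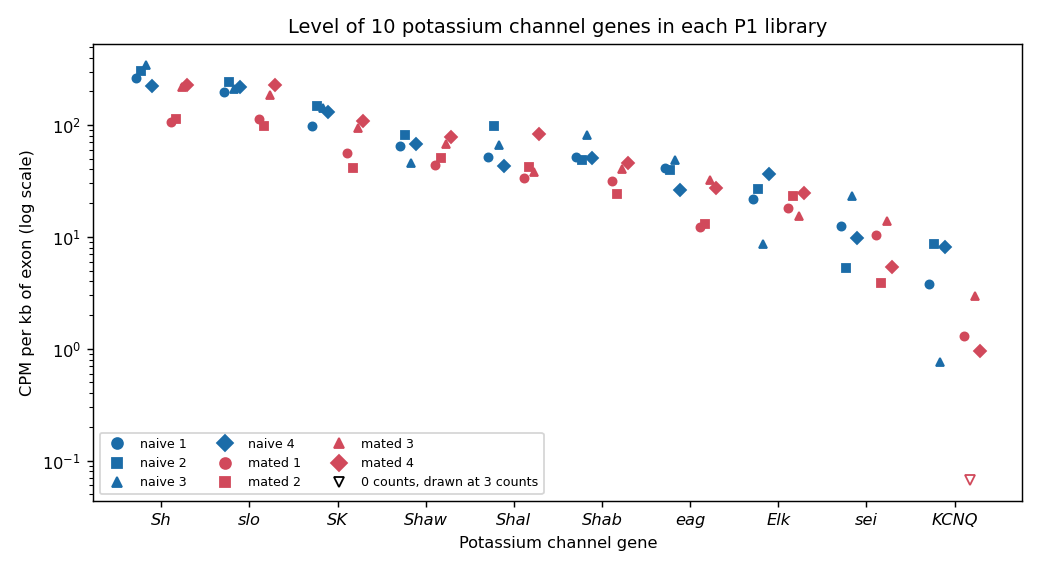
Level of each potassium channel gene in CPM per kb of exon, on a log axis, in 4 naive (blue) and 4 mated (red) libraries, with genes in order of their mean. Sh and slo sit at the top in all libraries, and KCNQ spreads from 8.56 CPM per kb down to 0 counts in mated library 2, drawn as an open triangle at the level of 3 counts.

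Not every step of this order exceeded its spread. Sh stood above slo in 6 of 8 libraries, by a mean log2 ratio of 0.23 ± 0.26 (SD, n = 8), so their order was not larger than the spread. slo stood above SK in 8 of 8 libraries, with a log2 ratio of 0.93 ± 0.23. SK stood above Shaw in 7 of 8, with a log2 ratio of 0.62 ± 0.56, little more than 1 SD. Shaw, Shal and Shab could not be ordered, since the log2 ratio was 0.20 ± 0.46 for Shaw over Shal and 0.26 ± 0.54 for Shal over Shab. Shab was above eag in 8 of 8 libraries, with a log2 ratio of 0.71 ± 0.37. eag against Elk (0.41 ± 1.10) and Elk against sei (1.17 ± 1.35) differed by less than 1 SD. sei stood above KCNQ in 7 of 8 libraries, with a log2 ratio of 2.65 ± 2.56 that includes the 0 counts of KCNQ in mated library 2. In naive library 2 sei was the lowest, at 5.28 CPM per kb against 8.56 for KCNQ. The order also depends on the length used: with the longest transcript in place of all exons, Sh averaged 422 CPM per kb against 214 for slo, and Shab moved from position 6 to position 4.

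Against all other transcripts of a library, Sh was among the abundant ones. Of the 6946 to 8053 genes with at least 3 counts and a known length, 144 to 718 had a higher level per kb than Sh. For slo that number was 266 to 788, and for SK 476 to 1641. eag stood above 53.6% to 80.6% of these genes, and sei above 31.1% to 64.1%. KCNQ stood above at most 47.3% of them, so that in every library at least 3946 genes had a higher level. Counted without regard to length, the 10 genes took 0.565% to 1.20% of a library's counts.

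The 4 classical voltage-gated genes had log2 fold changes, mated against naive, from -0.77 to -0.11, with 95% intervals that overlapped. Differences between the genes were not tested. Sh had 5954, 6928, 7881 and 5133 CPM across naive libraries 1 to 4, and 2408, 2591, 5026 and 5160 CPM across mated libraries 1 to 4. Mated libraries 1 and 2 were low, while mated libraries 3 and 4 lay at the bottom edge of the naive range, and the groups overlapped by mated library 4 alone. The means were 6474 ± 1191 and 3797 ± 1500 CPM (SD, n = 4), with a log2 fold change of -0.77 ± 0.27 (SE) that did not pass the threshold of 0.05 (adjusted p = 0.29 with edgeR). Shab, the delayed rectifier, had 591, 557, 923 and 581 CPM across naive libraries and 356, 272, 463 and 517 CPM across mated libraries. Shab was the only one of the 10 whose groups did not overlap, and the gap was small, between 517 and 557 CPM. Its log2 fold change was -0.72 ± 0.27 (SE, adjusted p = 0.317 with edgeR). In these whole-library counts, fewer P1 cells and less RNA per cell cannot be told apart. fru, the gene that marks P1 neurons and whose locus drives the recombinase, had 344 to 1143 CPM across naive libraries and 50.8 to 542 CPM across mated libraries, 3 of which were below every naive one. The log2 fold change of fru was -1.44 ± 0.54 (SE, adjusted p = 0.325 with edgeR), and it was -0.93 when scaled to 4 neuron genes. dsx, the other P1 gene, had a log2 fold change of -0.34 ± 0.48 (SE, adjusted p = 0.921 with edgeR), which was 0.28 when scaled to the neuron genes and 0.076 after removal of the exon length trend. The part of the P1 genes' lower values in those of the channels was not tested.

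Shal, an A-type channel of cell bodies and dendrites, had 237, 454, 303 and 196 CPM across naive libraries and 154, 194, 174 and 382 CPM across mated libraries. As for Sh, 3 mated libraries were below every naive one, while mated library 4 exceeded 3 of the 4 naive libraries. The log2 fold change was -0.40 ± 0.35 (SE, adjusted p = 0.796 with edgeR), and it was -0.12 without naive library 2 and -0.78 without mated library 4. Shaw had 327, 409, 229 and 335 CPM across naive libraries and 217, 255, 339 and 394 CPM across mated libraries. The Shaw groups overlapped almost completely. Its log2 fold change of -0.11 had an interval from -0.70 to 0.48 (95%), which leaves room for a change of either sign.

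The calcium-gated channels slo and SK had lower means in mated libraries, and the difference between their fold changes was not tested. slo had 2000, 2441, 2140 and 2234 CPM across naive libraries and 1153, 1000, 1890 and 2328 CPM across mated libraries. The naive libraries lay close together, with a coefficient of variation of 8.39%, while mated libraries 1 and 2 were near 1000 CPM and mated library 4 was above 3 of the naive ones. Means were 2204 ± 185 and 1593 ± 625 CPM (SD, n = 4), with a log2 fold change of -0.47 ± 0.26 (SE, adjusted p = 0.591 with edgeR). SK had 1062, 1600, 1533 and 1435 CPM across naive libraries and 606, 446, 1026 and 1181 CPM across mated libraries. Mated library 4 was the only mated library above the lowest naive one. The SK means were 1408 ± 240 and 815 ± 346 CPM (SD, n = 4), with a log2 fold change of -0.79 ± 0.29 (SE, adjusted p = 0.318 with edgeR).

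In the ether-a-go-go family, eag had 437, 418, 520 and 281 CPM across naive libraries and 129, 139, 345 and 290 CPM across mated libraries. Mated libraries 1 and 2 were again the low ones, and the other mated libraries fell inside the naive range. The log2 fold change of eag was -0.87 ± 0.34 (SE, adjusted p = 0.352 with edgeR). Elk ranged from 46.1 to 197 CPM across naive libraries and from 83.0 to 132 CPM across mated libraries, so the mated values lay wholly inside the naive ones. sei, the fly ERG-type channel, ranged from 17.3 to 75.3 CPM across naive libraries and from 12.7 to 45.0 CPM across mated libraries. Their log2 fold changes were -0.20 ± 0.41 for Elk and -0.60 ± 0.68 for sei (SE, adjusted p = 0.967 and 0.882 with edgeR). Leaving out 1 library took sei from -0.14, without naive library 3, to -0.93, without mated library 3. Naive library 3 held both the lowest Elk value and the highest sei value.

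KCNQ was the least evenly read of the 10. Its counts were 136, 207, 18 and 245 in naive libraries 1 to 4 and 44, 0, 158 and 28 in mated libraries 1 to 4. The 0 of mated library 2 allows up to 3 counts, or 0.259 CPM, by counting error alone. Naive libraries held 2.95 to 33.2 CPM and mated libraries 0 to 11.4 CPM, and both groups contained low libraries. Its log2 fold change of -2.03 had an interval from -5.10 to 1.04 (95%; edgeR, adjusted p = 0.704), which holds changes of either sign. The within-group SD of its log2 level was 1.49, against a median of 1.60 for 1091 tested genes of like level. For SK and eag the spread was larger than in 84.2% and 82.0% of genes of like level.

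Across the 10 genes, 0 passed an adjusted p of 0.05 in mated against naive libraries (edgeR), where 0.381% of 7090 tested genes did. DESeq2 also called 0 of them, where it called 3.29% of all tested genes. All 10 had been tested, and all 10 had a negative log2 fold change, against 50.5% of all tested genes. An unadjusted p under 0.05 was found for 4, namely Sh, Shab, SK and eag, all lower in mated libraries, against a background of 5.02% lower. That count was 2 without naive library 3, against 233 of 7562 genes lower, and 2 without mated library 1, against 295 of 7423. It was 3 without mated library 2, against 285 of 7403, and 6 without mated library 4, against 503 of 7522. The background thus moved with the library left out. With the title number as a factor the groups meet only within 1119, which holds 1 naive library, so no count is given for it. Groups did not overlap in 1 gene, Shab, where every mated library was below every naive library in 3.4% of tested genes. The median log2 fold change of the 10 was -0.66, and that of all tested genes was -0.0092.

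**Figure D2:**
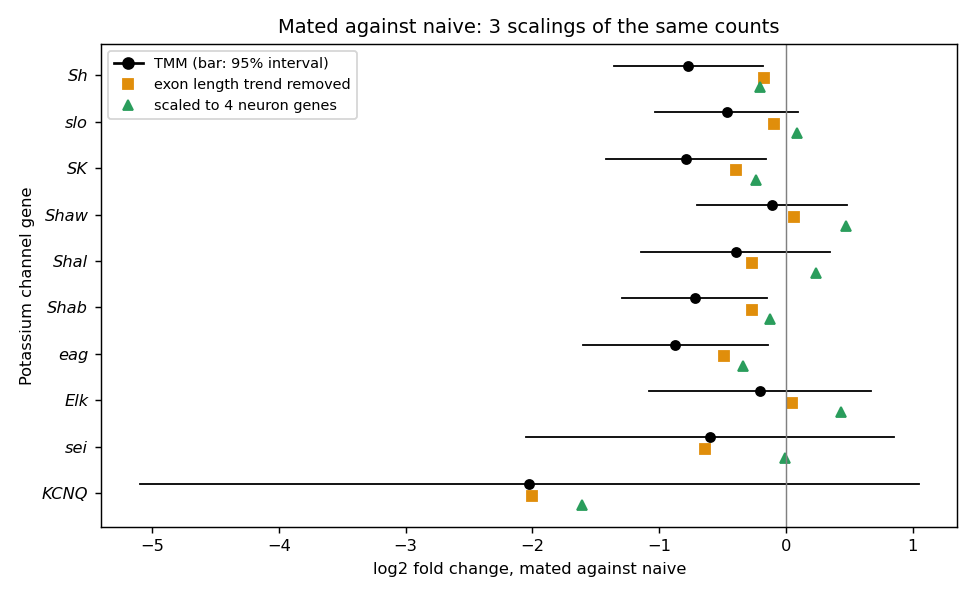
log2 fold change, mated against naive, of each potassium channel gene with TMM scaling (black, bar: 95% interval), with the exon length trend removed (orange) and scaled to 4 neuron genes (green). All 10 black points lie below 0, but Shaw and Elk cross 0 with the length trend removed, and Shal, Shaw, slo and Elk cross it when scaled to the neuron genes.

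The size and partly the sign of these differences moved with the scaling. The same 4 neuron genes (elav, brp, nSyb, Syt1) had a median log2 fold change of -0.60, close to that of the channels. Scaled to these 4 neuron genes, a choice added after the data were seen, the median of the 10 was -0.066, with 6 genes lower and 4 higher against 21.6% of all genes lower, while the median of all tested genes moved to 0.63. On that scale Sh was at -0.20, SK at -0.24 and eag at -0.34, while Shaw was at 0.47 and Elk at 0.43. With each library's trend with exon length removed, 8 of the 10 were lower against 56.2% of all genes, the median of the 10 was -0.27 and that of all genes -0.11, and Sh went from -0.77 to -0.17. Under library size alone the median of all genes was 0.17, and all but Shaw (0.048) remained negative among the 10. An unadjusted p under 0.05 was found for 0 of the 10 scaled to the neuron genes, against 31 of 7090 genes lower. It was also found for 0 with the length trend removed, against 328 of 7090 genes lower. With library size alone it was found for 4, all lower, against 186 of 7090 genes lower. Fat body markers, 6 of 6 higher in mated libraries, and glia markers, 5 of 5 tested ones higher, moved with the groups. Of 6 tested photoreceptor markers 4 were higher. Their part in the lower channel values was not tested.

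Among the 3 highest genes, the share among the channel transcripts varied less between libraries than the summed level did. Summed over the 10 genes, the level was 10455 to 13653 CPM across naive libraries and 5034 to 10404 CPM across mated libraries. Summed per kb, it was 804 to 1000 CPM per kb among naive and 410 to 829 CPM per kb among mated libraries, where mated library 4 stood above 2 naive libraries. Of this sum per kb, Sh made up 31.5% ± 3.41 among naive and 27.7% ± 2.52 in mated libraries, and slo made up 24.3% ± 2.12 and 26.1% ± 1.53 (SD, n = 4). SK held 14.4% ± 1.64 and 12.3% ± 1.58. These shares overlapped between the groups. Shaw was the exception, with 4.72% to 8.18% in naive libraries and 9.50% to 12.4% in mated libraries. Shaw also had the smallest log2 fold change of the 10, and its CPM overlapped between the groups. Shares are parts of the same sum, so a gene that changes least gains share where the others are lower. The separation of the Shaw shares was not tested, and no background for it was computed. Elk held 0.886% to 5.63% across libraries and KCNQ at most 0.994%.

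**Figure D3:**
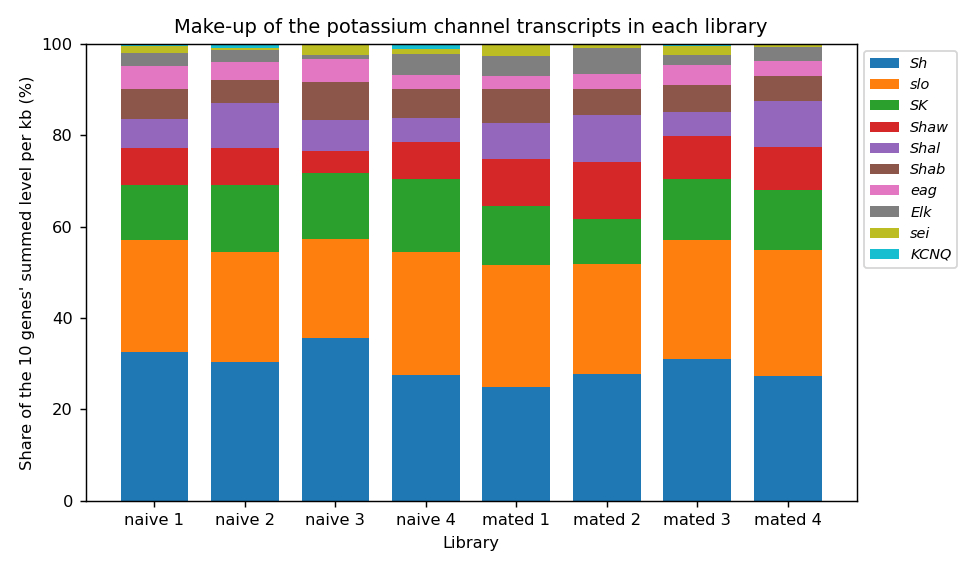
Share of each gene in the summed CPM per kb of the 10 potassium channel genes, in percent, for each library. Sh and slo together take the lower part of every bar. The Shaw segment is wider in the mated libraries (9.50% to 12.4%) than in the naive ones (4.72% to 8.18%), although its CPM overlapped between the groups.

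The lower channel values were carried unevenly by the mated libraries. Averaged over the 10 genes on the log2(CPM + 1) scale, with each gene centred on its own mean, naive libraries 1 to 4 stood at 0.28, 0.53, 0.22 and 0.38. Mated libraries 1 to 4 stood at -0.56, -0.95, 0.069 and 0.042. Mated libraries 1 and 2 were thus well below 0 and mated libraries 3 and 4 near it, though below every naive library. The value of mated library 2 includes the 0 counts of KCNQ, which lay at -4.02 from that gene's naive mean. The summed level of the 4 neuron genes was 3868 and 3445 CPM across mated libraries 1 and 2, 5696 and 5327 CPM across mated libraries 3 and 4, and at least 5821 CPM across naive libraries. The fat body sum was 2939, 2163, 1225 and 1616 CPM across mated libraries 1 to 4. Other marker lists had other orders over these libraries. The glia sum was 749, 918, 288 and 687 CPM, and the photoreceptor sum without norpA was 336, 556, 430 and 95.5 CPM. The relation of these sums to the channel values was not tested. Without mated library 1 the log2 fold change of Sh was -0.60, and without mated library 2 it was -0.62. Within title number 1119, Sh had 7881 CPM in naive library 3 against 2408 and 5026 CPM across mated libraries 1 and 3, and Shab 923 against 356 and 463 CPM. Naive library 3 held the highest naive values of both Sh and Shab. Elk and KCNQ went the other way within that number. Elk had 46.1 CPM in naive library 3 against 97.9 and 83.0 CPM, and KCNQ 2.95 against 5.07 and 11.4 CPM. Shaw, at 229 CPM, lay between the mated values of 217 and 339 CPM. With 1 naive library there, these differences have no replicate check.

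**Figure D4:**
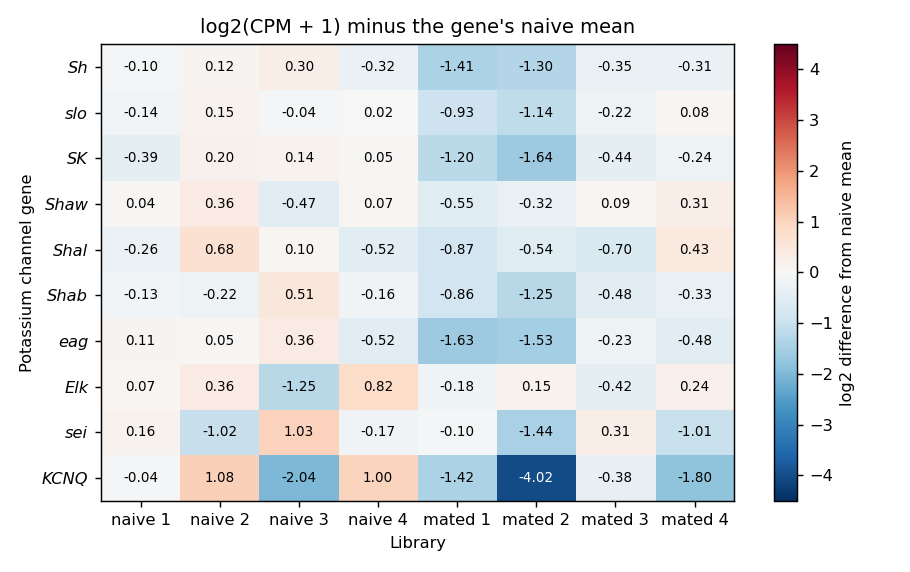
log2(CPM + 1) of each potassium channel gene in each library, minus the mean of that gene over the 4 naive libraries (red higher, blue lower). Mated libraries 1 and 2 are blue for Sh, slo, SK, Shab and eag (-0.86 to -1.64), while KCNQ runs from -2.04 to 1.08 among the naive libraries alone.

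The genes whose profile over the 8 libraries was most like the average of the channels were nAChRalpha1, a subunit of the nicotinic acetylcholine receptor, Hrb27C, an RNA-binding protein, and elav. Pearson's r was 0.989, 0.982 and 0.979. These values describe the 3 closest of the other tested genes, with 8 libraries as points that differ in the same library composition, and they carry no test.

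Partner proteins and modulators of the channels were read next, from a list of 14 genes. All 14 were matched and tested, all 14 had a negative log2 fold change against 50.5% of all tested genes, with a median of -0.56, and 0 passed the threshold (edgeR), against 0.381% of all genes. An unadjusted p under 0.05 was found for 7, all lower in mated libraries, where the background was 5.02%. It was found for 4 when naive library 2, mated library 1 or mated library 2 was left out. The genes lower at that level were then 282 of 7564, 295 of 7423 and 285 of 7403. With library size alone it was found for 3, and with the length trend removed for 2, against 186 and 328 of 7090 genes lower. Scaled to the 4 neuron genes, 0 were lower and 2 higher at that level, against 31 and 1119 of 7090 genes. Groups did not overlap in 5, namely Hk, qvr, SKIP, dysc and Adar, with every mated library below every naive one, as in 3.4% of all tested genes. Scaled to the 4 neuron genes, 6 of the 14 were lower and 8 higher, against 21.6% of all genes lower, with a median of 0.046. DESeq2 called 2 of them lower, Hk and qvr, where it called 3.29% of all genes.

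Hk, the cytoplasmic beta subunit of Sh, had 754, 988, 1131 and 900 CPM across naive libraries and 367, 334, 685 and 589 CPM across mated libraries. Its groups did not overlap, and the log2 fold change was -0.93 ± 0.27 (SE, adjusted p = 0.17 with edgeR). With DESeq2 its adjusted p was 0.0366, the lowest over the alternatives, which reached 0.702. Relative to Sh, per kb, Hk stood at a ratio of 0.313 ± 0.0433 for naive and 0.283 ± 0.0336 for mated libraries (SD, n = 4), closer together than the libraries of a group. qvr, a membrane-anchored protein also known as sleepless that promotes Sh activity, had 957, 872, 858 and 1101 CPM across naive libraries and 665, 449, 536 and 590 CPM across mated libraries. Every mated library of qvr was below every naive one, with a log2 fold change of -0.76 ± 0.22 (SE, adjusted p = 0.169 with edgeR). With DESeq2 the adjusted p of qvr was 0.0292, the lowest over the alternatives, which reached 0.842.

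Partners and relatives of slo came next. dysc, a scaffold that regulates slo expression at synapses, averaged 1776 ± 334 CPM across naive libraries and 1114 ± 107 CPM across mated libraries (SD, n = 4), with groups that did not overlap and a log2 fold change of -0.67 ± 0.21 (SE, adjusted p = 0.22 with edgeR). Slob, a slo-binding protein, averaged 300 ± 78.8 and 206 ± 30.8 CPM (SD, n = 4), with a log2 fold change of -0.54 ± 0.28 (SE, adjusted p = 0.525 with edgeR). Its ratio to slo per kb was 0.191 ± 0.0610 among naive and 0.194 ± 0.0589 in mated libraries. SLO2, the other Slo-family channel, averaged 350 ± 50.6 and 200.4 ± 106 CPM, with a log2 fold change of -0.80 ± 0.34 (SE).

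Of the remaining partners, SKIP, a Shal-interacting protein, and Adar, the enzyme that edits transcripts of several channels, had log2 fold changes of -0.84 ± 0.37 and -0.70 ± 0.28 (SE). Neither passed the threshold (edgeR, adjusted p = 0.439 and 0.365). The most abundant partners were 14-3-3zeta at 5928 CPM, Cam at 8155 CPM and CaMKII at 3113 CPM, as means over 8 libraries. Cam encodes calmodulin, the calcium sensor of SK. Its log2 fold change was -0.57 ± 0.25 (SE, adjusted p = 0.436 with edgeR). CaMKII, a kinase that binds and modifies eag, had naive and mated means of 3363 ± 355 and 2864 ± 397 CPM (SD, n = 4) and a log2 fold change of -0.23 ± 0.20 (SE).

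**Figure D5:**
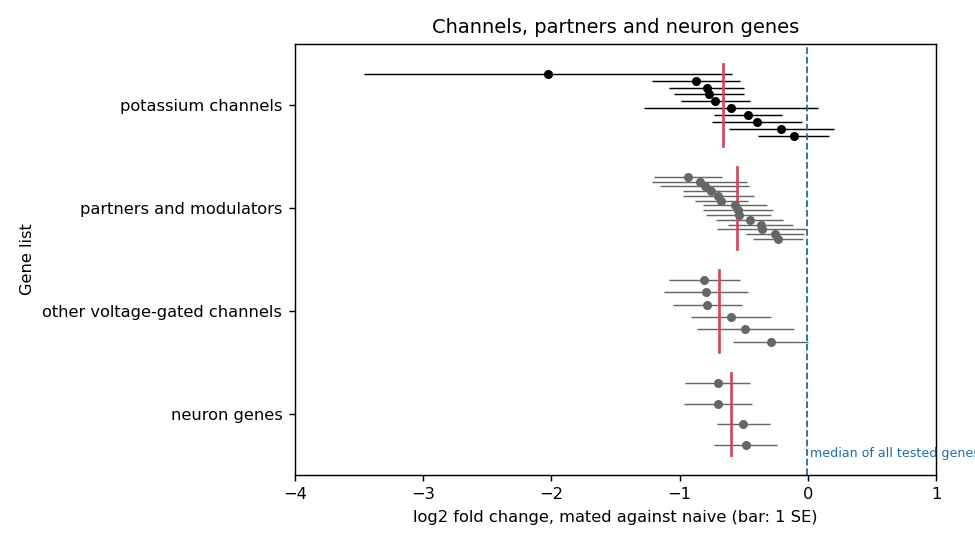
log2 fold changes, mated against naive, of the potassium channel genes, their partners and modulators, other voltage-gated channels and 4 neuron genes (points, bar: 1 SE), with TMM scaling. Red lines mark list medians of -0.66, -0.56, -0.69 and -0.60, and the dashed line marks the median of all tested genes at -0.0092; scaled to the neuron genes the medians of the first 3 lists are -0.066, 0.046 and -0.13.

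Calcium, sodium-type and pacemaker channels were set beside them, with NaCP60E, cac, Ca-alpha1D, Ca-alpha1T, Ih and na as the 6 matched genes. Their median log2 fold change was -0.69, with 6 of 6 negative against 50.5% of all genes and 0 past the threshold (edgeR) against 0.381%. For 3 of them the unadjusted p was under 0.05, all lower, against 5.02%. That held for 2 with library size alone, against 186 of 7090 genes lower. It held for 0 with the length trend removed or scaled to the neuron genes, against 328 and 31 of 7090 genes lower. Scaled to the neuron genes the median was -0.13, with 4 lower and 2 higher against 21.6% of all genes lower. cac, the calcium channel of transmitter release, averaged 1919 ± 478 CPM across naive libraries and 1096 ± 374 CPM across mated libraries (SD, n = 4). For cac the log2 fold change was -0.81 ± 0.28 (SE, adjusted p = 0.268 with edgeR). Ca-alpha1D and Ca-alpha1T, the L-type and T-type calcium channels, had log2 fold changes of -0.78 ± 0.27 and -0.79 ± 0.32 (SE, adjusted p = 0.265 and 0.39 with edgeR). Whether the potassium channels differed from these channels in their response was not tested.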

How the data were processed

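RNA from P1 neurons was read in 16 entries, an A and a B run for every library. Per the labels' protocols, cDNA was amplified for 15 rounds, sheared to 200 bp and amplified for 12 further rounds, so reads are not independent molecules, and floors cover counting error only. The authors deposited raw counts per gene for each run and their sum. The submitters' processing notes name cutadapt, HISAT2 2.2.1, featureCounts 1.6.2, MultiQC, edgeR, limma, DESeq2 2.11, dm6 and BDGP6, and annotation release and strand setting are not given in the sources used here.

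Names matched 17253 of 17559 identifiers, and lengths and coordinates came from Ensembl BDGP6 release 115. para had no match by symbol and was not analysed here. The test across all genes used the summed counts and edgeR 4.0.16 under R 4.3.3 (filterByExpr, TMM, robust glmQLFit and glmQLFTest, group as the only term) over 7090 genes, with Benjamini-Hochberg adjustment over all of them. The standard error is the fitted coefficient divided by the square root of F, and the biological coefficient of variation was 0.936. The code was tested on simulated counts. Alternatives included DESeq2 1.42.0, other scalings and filters, each run alone, the title number as a factor, removal of each library's lowess trend with exon length, and leaving out each library. Python 3.11.15 was used for the rest.

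The 10 genes and the lists were chosen with earlier results of these data known. Named genes are all 10 channels, and, in the partner and channel lists, those with an unadjusted p under 0.05, the 3 highest levels, Hk, qvr, Slob and SLO2, the neuron genes and the 3 genes most like the channels. Columns of samples left out numbered 0.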

Additional observations from a re-analysis of the deposited data

Results flagged for a closer look

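The naive value of Shab in library 3, 923 CPM, stood apart from the next naive value of 591 CPM by more than Dixon's 95% limit for 4 samples. The Ca-alpha1D value of the same library, 325 CPM, stood apart on the low side, below the next naive value of 406 CPM. These were 2 of 68 groups of 4 libraries examined, and chance flags about 1 in 20.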

How the results depend on the processing

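Over the alternatives other than the title number, 0 of the 10 channel genes passed the threshold. Many alternatives reuse the same counts with nearly the same scaling, so they could hardly change a direction. With that limit, 186 of 199 fold changes of single channels kept their direction over all alternatives. The exceptions, as log2 fold changes, were Shaw with library size alone (0.048), the title number as a factor (0.28), the length trend removed (0.062), scaling to neuron genes (0.47), without naive library 2 (0.015) and without mated library 1 (0.017), where each library left out gave -0.27 to 0.017. Elk was at 0.97 with the title number, 0.043 with the length trend removed, 0.43 with scaling to neuron genes and 0.090 without naive library 4 (range -0.49 to 0.090 over libraries left out). KCNQ was at 1.48 with the title number, and Shal and slo at 0.24 and 0.086 with scaling to neuron genes. With the title number as a factor, the groups are compared only within 1119. Those fold changes therefore rest on naive library 3 against mated libraries 1 and 3. The cause of the other exceptions was not tested. The median of the 10 moved to -0.27 with the length trend removed and to -0.066 with scaling to neuron genes. Of the 14 partner genes, DESeq2 called 2. The number of all genes called, 27, became 46 with library size alone and 56 with no filter. It was 64 with at least 10 counts in every library and 47 for run B alone. It became 14 with the length trend removed, 122 with scaling to neuron genes and 233 with DESeq2. With each library left out in turn it was 6 to 53. Without division by length, 6 of 10 channels kept their position in the order. No paired analysis was possible because the labels do not say which libraries form each of the 4 sets of the design text. KCNQ had 0 to 245 counts per library, and its 18 and 207 counts in naive libraries 3 and 2 came at totals of 6953936 and 6897560 counts.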
